A study of Homo sapiens with 9 samples.

Results

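Translation initiation and elongation factor genes were examined for RNA polymerase II at their start sites in HEK293T, a line derived from human embryonic kidney. The genes were chosen by name alone: protein-coding genes of GENCODE version 44 on GRCh38 whose names begin with EIF1 to EIF6, EEF1 or EEF2, without those on chromosome Y. The rule found 70 of 19970 protein-coding genes, which leave out chromosome Y and the mitochondrial genome. It also takes in genes named after a factor that are not factors themselves, such as the kinases of eIF2, the proteins that bind eIF4E and the enzymes that modify eEF1A or eEF2. Polymerase was mapped by chromatin immunoprecipitation and sequencing with an antibody to POLR2A, the largest subunit of the enzyme. The groups were shCtrl cells, which carry a control shRNA and are labelled wildtype, cells with knockdown of U2AF1, the small subunit of a splicing factor that reads the AG at the end of introns, and cells in which DHX9, a helicase that unwinds RNA and DNA, was knocked down. Each group had 2 ChIP replicates and 1 input, and 1 deposited list of peaks, so the spread between replicates is unknown. The lists are called control, shU2AF1 and shDHX9. The labels do not say whether cells were single clones or when they were harvested, and the extent of the knockdowns was not analysed here.

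In cap-dependent initiation, the eIF4 factors bind the cap of the mRNA and unwind its leader, eIF2 brings the initiator tRNA to the small ribosomal subunit, and eIF3 holds the assembly together. EIF1, EIF1A and EIF5 control the choice of the start codon, and EIF5B joins the large subunit. In elongation, eEF1A delivers each aminoacyl-tRNA and eEF2 moves the ribosome to the next codon. Many mRNAs of the translation machinery begin with a C followed by pyrimidines, the terminal oligopyrimidine tract, through which their translation follows the activity of mTOR.

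The bases around the RefSeq start of 6 of the genes with a start-site peak in every list are shown, to tell which have such a tract there. The ends of the mRNAs were not mapped here. Each sequence runs from 10 bases before to 20 bases after the RefSeq start on GRCh38.p14, 5′ to 3′ on the strand of the gene. Capitals mark a run of at least 5 pyrimidines that begins with C within 2 bases of the start, and a sequence without capitals has no such run.
EEF1A1 (chr6:73521013-73521042, minus strand): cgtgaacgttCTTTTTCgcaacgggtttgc
EEF2 (chr19:3985444-3985473, minus strand): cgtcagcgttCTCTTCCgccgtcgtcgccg
EIF4E2 (chr2:232550679-232550708, plus strand): agcggaagtcaCTCCCTgaggcagtggcga
EIF1 (chr17:41688875-41688904, plus strand): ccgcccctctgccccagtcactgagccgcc
EIF4A1 (chr17:7572815-7572844, plus strand): ggcactccgccctagtttctaaggatcatg
EIF4A3 (chr17:80147109-80147138, minus strand): cggcagcggcacagcgaggtcggcagcggc

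EEF1A1 and EEF2 began with C at the annotated start itself, each with a run of 7 pyrimidines. The run of EIF4E2 began 1 base after its annotated start. The other gene in every list, EIF4G2, is not shown because its RefSeq start in the table used belonged to another start of the gene, from which the control summit lay at -867 bp. A pyrimidine start was found in 16 of the 56 genes with a RefSeq promoter, or 28.6%, against 11.3% of 15315 protein-coding genes. The longest runs, of 10 bases, were those of EIF3D and EIF3F, both subunits of eIF3. Among genes with a start-site peak in any list 9 of 25 had such a start, and among those without one 7 of 31. The 9 include EIF4G2 and EIF3K, whose control summits lay at -867 and -428 bp from the RefSeq start with the run. EIF3F, EIF2A and EIF2S3 had long runs and no peak, so a pyrimidine start and a peak did not go together gene by gene.

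A gene was counted as carrying polymerase at its start when the summit of a peak lay within 1000 bp of any of its annotated transcript starts. In the control list 18 of the 70 genes did, or 25.7% (exact 95% binomial interval 16.0 to 37.6%), and the share of all protein-coding genes was 12.6%. In the shU2AF1 list 9 did, or 12.9% (6.05 to 23.0%), against 6.67% of all protein-coding genes. The shDHX9 list held 28, or 40% (28.5 to 52.4%), against 21% of all. The order of the lists was that of all genes and of the lists' lengths, 2757, 1730 and 4443 peaks. The share of translation factor genes was 2.03, 1.93 and 1.90 times that of all genes in the control, shU2AF1 and shDHX9 lists. All protein-coding genes include those silent in these cells, and expression was not measured here, so this ratio was not tested. The translation factor genes also had more annotated starts, a median of 8 against 5. With the Ensembl canonical start of each gene alone the shares were 25.7%, 12.9% and 38.6%, against 11.7%, 6.13% and 19.5% of all genes, and 10% against 3.68% in all 3 lists. With peaks of −log10 q of at least 5 they were 20%, 11.4% and 30%, against 9.2%, 3.93% and 14%, and 8.57% against 2.52% in all 3 lists. With the 1730 strongest peaks of each list by p they were 15.7%, 12.9% and 21.4%, against 8.08%, 6.67% and 8.47%, and 7.14% against 2.58% in all 3 lists.

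Of the 70 genes, 31 had a start-site peak in at least 1 list (44.3%, against 24.9% of all protein-coding genes) and 7 had a peak in all 3 (10%, against 4.04%). These 7 were EEF1A1, EEF2, EIF1, EIF4A1, EIF4A3, EIF4E2 and EIF4G2. EIF2AK1, EIF2B1, EIF3A, EIF3B, EIF3L, EIF4A2, EIF4ENIF1 and EIF4H were found in the control and shDHX9 lists (11.4%, against 5.51% of all), and EIF2AK3 and EIF5 in both knockdown lists (2.86%, against 1.38%). Another 11 were found in the shDHX9 list alone (15.7%, against 10.1%), and EIF2AK4, EIF3K and EIF4G1 in the control list alone (4.29%, against 2.66%). All 9 genes of the shU2AF1 list were also in the shDHX9 list, against 81.3% of the 1332 protein-coding genes of that list. In reverse these 9 made up 32.1% of the 28 genes of the shDHX9 list, against 25.8% among all genes. Of the 18 control genes, 83.3% were in the shDHX9 list (75.5% among all genes) and 38.9% in the shU2AF1 list (35.4% among all genes). The intervals of these small shares reach over the values of all genes.

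**Figure D1:**
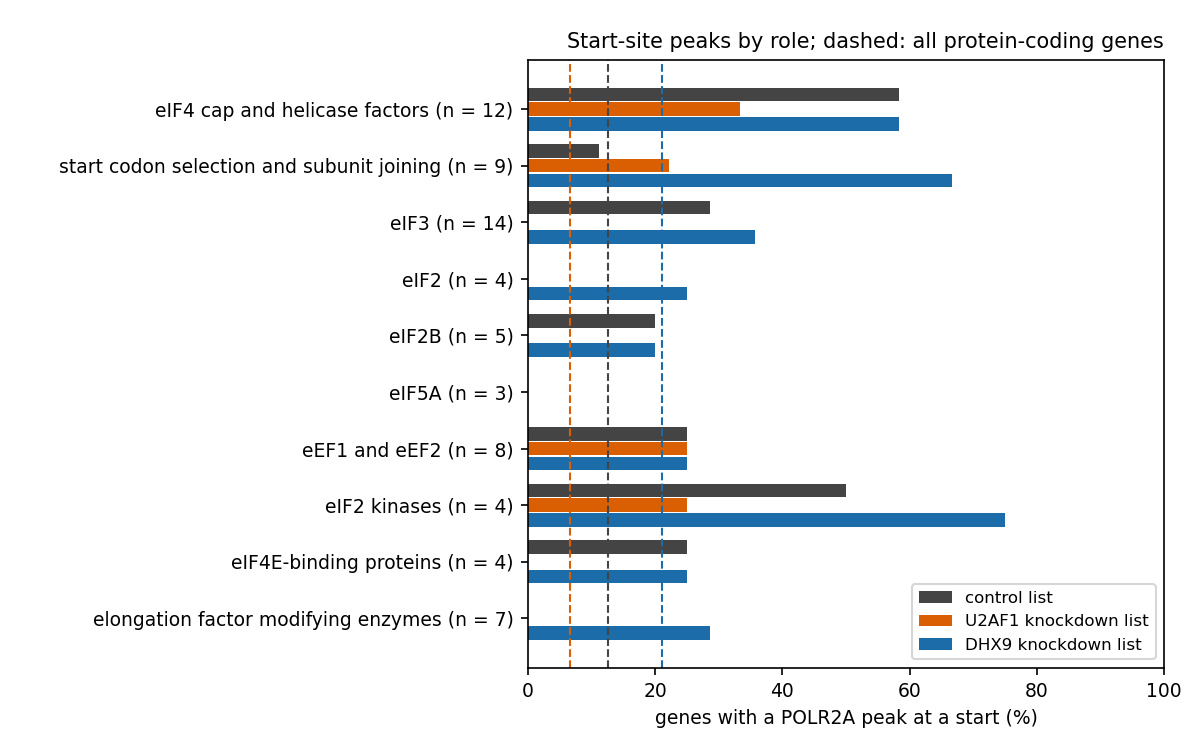
Share of genes with a POLR2A peak within 1000 bp of a transcript start (x axis, percent) by role of the gene product (y axis, with the number of genes), for the control, shU2AF1 and shDHX9 lists. Dashed lines give the share of all protein-coding genes, 12.6%, 6.67% and 21%; the eIF4 factors lay above all 3 lines, and the eIF5A genes had no peak.

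The eIF4 genes, which encode the cap-binding proteins, their scaffolds and the helicases with their cofactors, had the fullest coverage in the control and shU2AF1 lists among roles with at least 5 genes. Of these 12 genes, 7 had a peak in the control list (58.3%, against 12.6% of all protein-coding genes). The shU2AF1 list held 4 (33.3%, against 6.67%) and the shDHX9 list 7 (58.3%, against 21%). EIF4B, EIF4E, EIF4E1B and EIF4G3 had none, and EIF4E encodes the main cap-binding protein itself.

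EIF4A3 (ENSG00000141543.12), the helicase at the core of the exon junction complex, had the strongest peaks of the 7 genes found in every list. Its peak lay at chr17:80146895-80147490 in the control list, at rank 150 of 2757 and a fold enrichment of 8.46. In the shU2AF1 list the fold enrichment was 11.0, with rank 57 of 1730. In the shDHX9 list it was 10.1, with rank 193 of 4443. All 3 ranks lay in the strongest 10% of their lists, and the summits lay 26 to 39 bp after the start, in the 5′ UTR.

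The fold enrichment is the authors' ratio of the reads at the summit to a local background, and both parts could be recovered from the fold and the p-value of each peak. The number of reads is a count in 1 list and has an exact Poisson interval that covers counting error only. To set lists of different depth side by side, reads were also divided by the floor of each list, the lowest background recovered there, or in the control list the 0.01 quantile of the recovered backgrounds. The floor was 4.94 reads in the control list, 2.05 in the shU2AF1 list and 1.68 in the shDHX9 list. At EIF4A3 the summit was covered by 129 reads in the control list (108 to 153), 50 in the shU2AF1 list (37.1 to 65.9) and 41 in the shDHX9 list (29.4 to 55.6). Relative to the floors these were 26.1, 24.3 and 24.4, which differ by less than the counting error.

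EIF4A1 (ENSG00000161960.16), the helicase subunit of eIF4F, had middling peaks in every list. Control fold enrichment was 4.26, beside 4.71 in the shU2AF1 list and 4.85 in the shDHX9 list, with ranks 1257, 875 and 2803. Its close relative EIF4A2 differed in pattern: it ranked 110 in the control list with a fold enrichment of 9.68 and 398 in the shDHX9 list with 8.22, and had no peak in the shU2AF1 list. Its nearest shU2AF1 summit lay 215967 bp away. The 2 EIF4A2 summits differed by 1 bp. The control summit had 59 reads and the shDHX9 summit 21, or 11.9 and 12.5 times the floor. They lay in the first coding exon, and the local background there was at the floor in both lists.

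EIF4G2 (ENSG00000110321.19), a scaffold related to EIF4G1 that lacks the site for eIF4E, had a control fold enrichment of 3.48, beside 6.30 in the shU2AF1 list and 7.98 in the shDHX9 list. The ranks were 1985, 316 and 460. EIF4G1, the main scaffold, was found in the control list alone, with rank 1158 and 26 reads at the summit. EIF4H, a cofactor of the eIF4A helicase, ranked 1618 in the control list with a fold enrichment of 3.86, and 377 in the shDHX9 list with 8.32. Its summits lay upstream, at -157 and -139 bp from the nearest start. EIF4E2, a cap-binding protein that represses translation, had peaks in the control list (fold enrichment 3.11, rank 2275), the shU2AF1 list (5.11, rank 689) and the shDHX9 list (5.00, rank 2573). TIGD1 begins on the opposite strand. Its start was nearer than that of EIF4E2 to the control summit, 9 bp away, and to the shU2AF1 summit, 31 bp away. Only the shDHX9 summit was nearer to a start of EIF4E2. EIF4E3 was found in the shDHX9 list alone (fold enrichment 5.42, 16 reads), with its summit 184 bp from a start of GPR27 and at -28637 bp from its own canonical start.

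**Figure D2:**
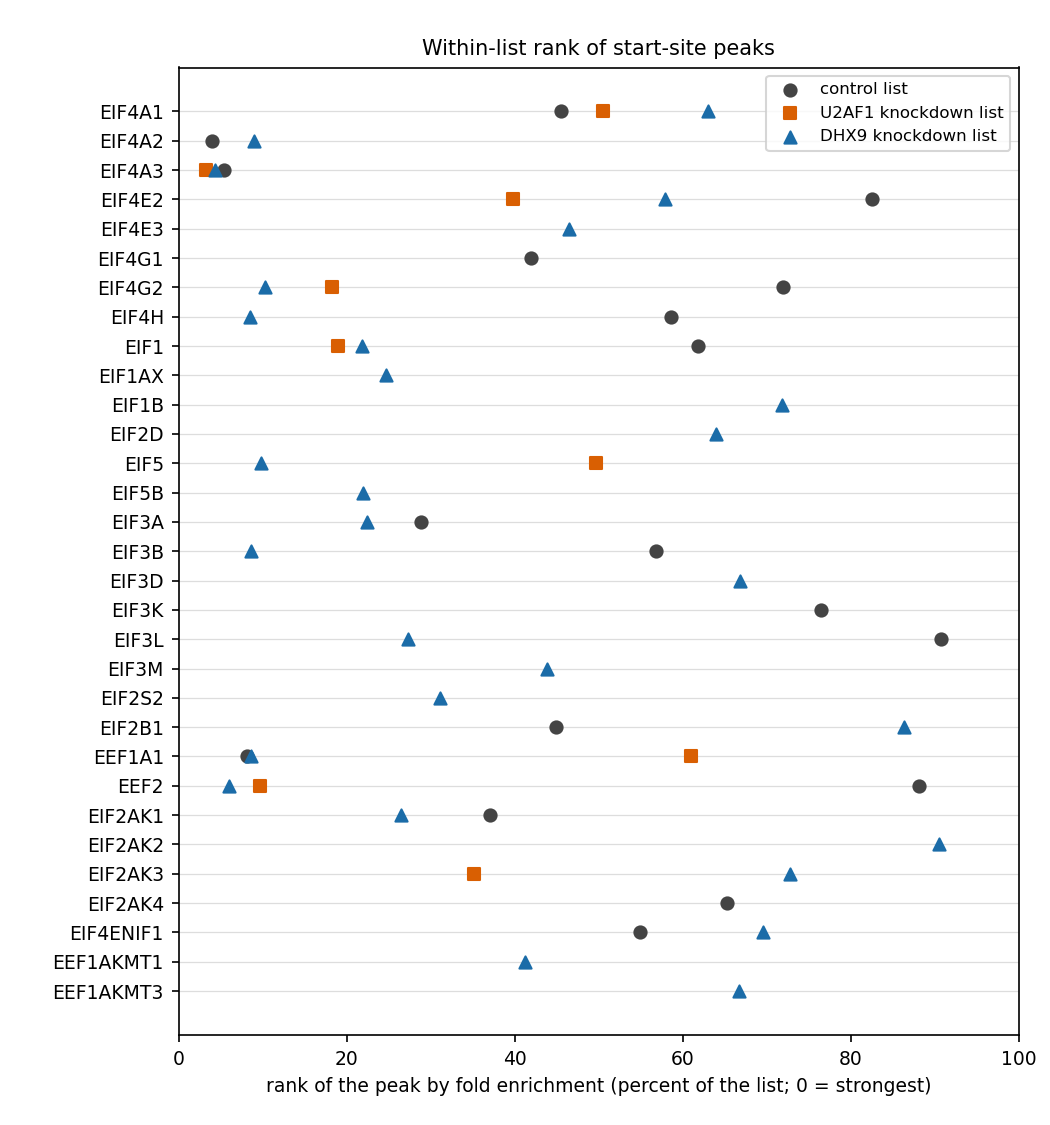
Rank of each start-site peak by fold enrichment as a percent of its list (x axis, 0 is the strongest) for the 31 genes with a peak (y axis, ordered by role); symbols mark the control, shU2AF1 and shDHX9 lists. EIF4A3 lay in the strongest 10% of all 3 lists, EEF2 in the strongest 10% of both knockdown lists and near the weak end of the control list.

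The genes of start codon selection and subunit joining had a peak in 6 of 9 cases in the shDHX9 list, the longest list (66.7%, against 21% of all protein-coding genes). The control list held 1 of them (11.1%, against 12.6%) and the shU2AF1 list 2 (22.2%, against 6.67%). EIF1 (ENSG00000173812.11), which guards the fidelity of the start codon, was the gene found in every list. Control fold enrichment was 3.78, beside 6.23 in the shU2AF1 list and 6.64 in the shDHX9 list, with ranks 1704, 328 and 970. By −log10 p instead of fold, its control rank was 527. EIF5, which triggers GTP hydrolysis by eIF2, ranked 859 in the shU2AF1 list with a fold enrichment of 4.75 and 437 in the shDHX9 list with 8.05. Its peaks were the widest of any of these genes, 700 bp and 914 bp.

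EIF1AX, EIF5B, EIF2D and EIF1B were in the shDHX9 list alone. EIF5B, the GTPase of subunit joining, had rank 978 with 18 reads at the summit (10.7 to 28.4), and EIF1AX, which works with EIF1 on the scanning ribosome, rank 1095 with 22 reads (13.8 to 33.3). EIF2D and EIF1B were weaker, with ranks 2845 and 3191. EIF6, which keeps the large subunit from joining early, EIF2A and EIF1AD had no peak.

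Of the 14 eIF3 genes 4 had a peak in the control list (28.6%, against 12.6% of all protein-coding genes) and 5 in the shDHX9 list (35.7%, against 21%). The shU2AF1 list held 0 of them, where the share of all genes was 6.67%. EIF3A, the largest scaffold subunit, ranked 795 in the control list with a fold enrichment of 4.93 and 997 in the shDHX9 list with 6.61, and its summit moved from 40 bp after to 115 bp before the start. EIF3B, another core subunit, carried 2 different peaks: the control summit lay 841 bp upstream of its canonical start, and the strongest shDHX9 summit 94 bp after it, with rank 382 and a fold enrichment of 8.26. The shDHX9 list had a weaker peak upstream as well, of rank 2585 with its summit at -879 bp, and a further one inside the gene, 52 bp before a minor start.

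EIF3L was found in the control list with rank 2504, a fold enrichment of 2.59 and 42 reads, and in the shDHX9 list with rank 1215, a fold enrichment of 6.32 and 23 reads, but both summits were nearer to the start of ANKRD54, on the opposite strand. EIF3K was in the control list alone, at rank 2109, and its summit was nearer to a start of MAP4K1. EIF3D and EIF3M were in the shDHX9 list alone, at ranks 2970 and 1947, and EIF3M had a fold enrichment of 5.53 and 20 reads. EIF3C, EIF3CL, EIF3E, EIF3F, EIF3G, EIF3H, EIF3I and EIF3J had no peak. EIF3C and EIF3CL are near-identical copies, so reads from them may not be placed uniquely, and how such reads were treated is not given in the sources used here.

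Of the 4 genes for subunits of eIF2 itself, 1 had a peak in at least 1 list (25%, against 24.9% of all protein-coding genes). EIF2S2, the beta subunit, had a shDHX9 peak of rank 1382 with 17 reads (9.90 to 27.2), and EIF2S1, EIF2S3 and EIF2S3B had none. Of the 5 genes of eIF2B, the exchange factor that recharges eIF2 with GTP, EIF2B1 alone had a peak (20%, against 24.9%). EIF2B1 ranked 1238 in the control list (fold enrichment 4.30, 62 reads) and 3840 in the shDHX9 list (3.92, 23 reads). Its summits lay 18 and 23 bp from the start of GTF2H3, a subunit of the general transcription factor TFIIH, which begins on the opposite strand, and farther from that of EIF2B1. The 3 eIF5A genes, whose product eases peptide bond formation at difficult residues, had none.

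All 4 kinases that phosphorylate eIF2 under stress had a start-site peak in at least 1 list, against 24.9% of all protein-coding genes. EIF2AK1, known as HRI, ranked 1021 in the control list, with a fold enrichment of 4.54 and 37 reads, and 1176 in the shDHX9 list, with 6.35 and 16 reads. EIF2AK4, known as GCN2 and active on amino acid shortage, was in the control list alone at rank 1801. EIF2AK2, known as PKR, was in the shDHX9 list alone at rank 4022, and rested on 10 reads (4.80 to 18.4). EIF2AK3, known as PERK, had a shU2AF1 summit at -27 bp with rank 608 (fold enrichment 5.29, 16 reads) and a shDHX9 summit at -620 bp with rank 3232 (4.48, 11 reads). The latter was the farthest of any summit counted. The nearest summit left outside the window was 3018 bp from a start of EIF4E1B, in the shDHX9 list.

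Among the genes that bind eIF4E, EIF4EBP1, EIF4EBP2 and EIF4EBP3, the translational brakes released by mTOR, had no peak. EIF4ENIF1, a transporter of eIF4E, had a control peak of rank 1516, and the stronger of its 2 shDHX9 peaks, of rank 3092, lay 20 bp from a start of SFI1. The weaker, of rank 3708, lay beside the place of the control peak. Of the 7 genes of elongation factor modifying enzymes, EEF1AKMT1 and EEF1AKMT3, both methyltransferases of eEF1A, had peaks in the shDHX9 list alone. That was 28.6%, against 21% of all protein-coding genes, and the ranks were 1835 and 2967. The EEF1AKMT1 peak had a fold enrichment of 5.60 and 14 reads. The EEF1AKMT3 summit was nearer to a start of METTL1. EEF1AKMT2, EEF1AKMT4, its readthrough EEF1AKMT4-ECE2, EEF2K and EEF2KMT had none.

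The elongation factor genes were either in every list or in none. EEF1A1 and EEF2 had a peak in all 3 lists. They were 25% of these genes, against 4.04% of all protein-coding genes in all 3 lists and 24.9% in at least 1. EEF1B2, EEF1D and EEF1G, which reload eEF1A with GTP, the neuron and muscle form EEF1A2, and EEF1E1 with its readthrough EEF1E1-BLOC1S5 had none. A shDHX9 peak inside EEF1E1-BLOC1S5 lay at the start of BLOC1S5.

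By fold enrichment, EEF1A1 (ENSG00000156508.19) ranked high in the control and shDHX9 lists and low in the shU2AF1 list. Its peak lay at chr6:73520800-73521151 in the control list, at rank 225 of 2757 and a fold enrichment of 6.93, just inside the first intron of the canonical transcript. In the shU2AF1 list the fold enrichment was 4.33, with rank 1056 of 1730, and in the shDHX9 list 8.25, with rank 385 of 4443. Among the 807 protein-coding genes with a start-site peak in all 3 lists, the same genes in each, EEF1A1 stood at place 117, 640 and 221. Ranked by −log10 p, its shU2AF1 peak stood at 847 of 1730. By that ranking its places among the 807 were 73, 478 and 132. The summit had 93 reads in the control list (75.1 to 114), 24 in the shU2AF1 list (15.4 to 35.7) and 38 in the shDHX9 list (26.9 to 52.2). Divided by the floors these were 18.8 (15.2 to 23.0), 11.7 (7.49 to 17.4) and 22.7 (16.0 to 31.1). The shU2AF1 value was the lowest, and its interval overlapped both others. The difference was not tested, and counting error is only part of the error between lists. Its local background was similar in all lists, 2.22 to 2.49 times the floor.

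EEF2 (ENSG00000167658.16) stood the other way around in the control and shU2AF1 lists, and ranked high in the shDHX9 list as EEF1A1 did. The control peak, at chr19:3985224-3985463, had a fold enrichment of 2.80 and stood at rank 2430 of 2757, and the fold enrichment was 7.57 in the shU2AF1 list, with rank 168 of 1730. In the shDHX9 list it was 9.22, with rank 267 of 4443. Among the 807 genes in all lists EEF2 stood at place 786 in the control list, 97 in the shU2AF1 list and 157 in the shDHX9 list. The reads at the summit lay closer together and their intervals overlapped once divided by the floors: there were 67 (51.9 to 85.1), 32 (21.9 to 45.2) and 34 (23.5 to 47.5), or 13.6, 15.6 and 20.3 times the floor. The local background by which the reads are divided was 4.68 times the floor in the control list, against 1.64 and 1.67 in the U2AF1 and shDHX9 lists. Ranked by −log10 p, the control peak stood at 1550 of 2757.

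The same contrast in local background was seen at EIF1, EIF4G2, EIF4A3 and EIF4E2. At EIF4A3 the background was 2.86 times the floor in the control list, against 1.77 and 1.87 in the shU2AF1 and shDHX9 lists. At EIF4E2 it was 2.10 against 1.23 and 1.67. At EIF4A1 the lists lay close together, 2.08 against 1.99 and 1.99. At EIF1 it was 4.42 times the floor in the control list, against 2.25 and 2.73 in the knockdown lists, and the reads at the summit were 17.4, 16.6 and 21.5 times the floor. At EIF4G2 it was 2.78 against 1.21 and 1.42, and the reads were 10.3, 10.2 and 15.5 times the floor. Over all protein-coding genes with a start-site peak, the median local background was also higher in the control list, 1.64 times the floor against 1.33 and 1.32. Of the 7 genes in every list, all but EEF1A1 had a lower fold enrichment in the control list than in both knockdown lists. The median fold enrichment over all protein-coding genes with a start-site peak was also lower there, 4.26 against 5.05 in the shU2AF1 and 5.47 in the shDHX9 list. At EEF2, EIF1 and EIF4G2 reads at the summit relative to the floor were lower in the control than in the shDHX9 list, with overlapping intervals. Over all protein-coding genes with a start-site peak their median was 8.09, 8.76 and 10.1 times the floor in the control, shU2AF1 and shDHX9 lists. How much the reads and the background each counted, and what raised the background in the control list, was not tested.

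**Figure D3:**
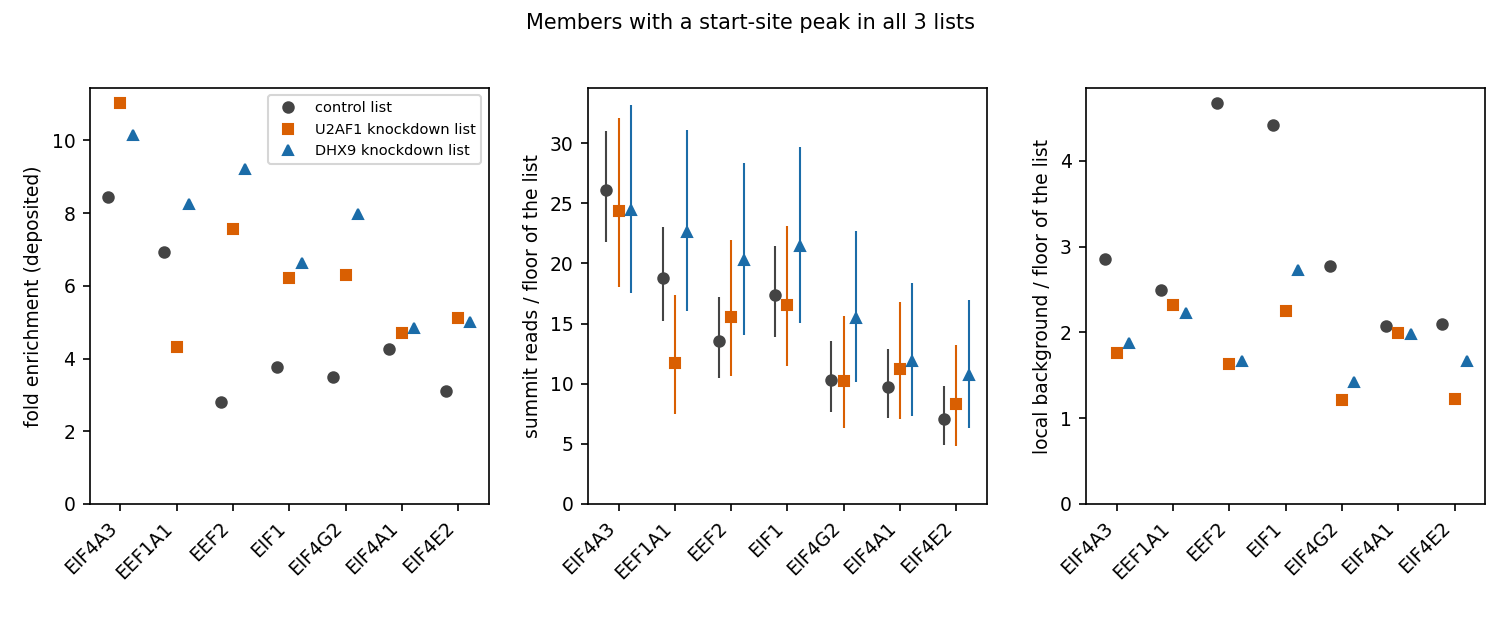
Fold enrichment as deposited (left), reads at the summit divided by the floor of the list with exact Poisson intervals (middle) and local background divided by the floor (right) for the 7 genes with a start-site peak in every list. EEF2 had the lowest control fold enrichment, 2.80, beside the highest control background, 4.68 times the floor, while its reads at the summit overlapped between lists.

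The peaks of translation factor genes had median rank percentiles of 55.9 in the control list, 35.1 in the shU2AF1 list and 29.2 in the shDHX9 list, where 0 is the strongest peak. Those of all protein-coding genes with a start-site peak were 45.8, 41.6 and 45.6. The intervals of the translation factor medians, 37.0 to 72.0, 9.71 to 50.6 and 21.8 to 63.1, each reached over the median of all genes. Ranked by −log10 p the medians were 54.4, 44.5 and 38.1, against 50.6, 51.4 and 48.1. In the shDHX9 list 7 of 28 peaks stood in the strongest 10% by fold enrichment, against 401 of 4201 for all genes, and by −log10 p 4 of 28 did, against 338 of 4201. By fold enrichment the control list had 3 of 18 there, against 213 of 2526, and the shU2AF1 list 2 of 9, against 110 of 1332. By −log10 p these were 3 of 18, against 147 of 2526, and 1 of 9, against 65 of 1332. Ranks in lists of different lengths do not show a change between conditions.

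Summits lay close to the start. In the control list 14 of 18 were within 100 bp of an annotated start of the gene (77.8%, against 65.2% of all protein-coding genes with a peak), in the shU2AF1 list 9 of 9 (all genes 63.1%) and in the shDHX9 list 19 of 28 (67.9%, all genes 63.5%). Median offsets of the control, shU2AF1 and shDHX9 summits were -0.5, 7 and 11 bp, against 18, 28 and 14 bp for all genes. These offsets are to the nearest of several annotated starts. From the canonical start alone the medians were 37, 52 and 43 bp. Their intervals were -177 to 63, 26 to 162 and -115 to 60 bp, so only the shU2AF1 interval lay wholly downstream. Upstream of the canonical transcript lay 7 of 18 control summits, 1 of 9 shU2AF1 summits and 10 of 28 shDHX9 summits.

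For the 7 genes in every list the summits of the control and shU2AF1 lists differed by 1 to 40 bp, with a median of 10 bp, and the median over the 894 protein-coding genes with a peak in both was 38 bp. The smallest shift was at EIF1, from 51 to 52 bp after its canonical start. Between the control and shDHX9 lists 9 of 15 summits were within 50 bp of each other, against 1022 of 1907 for all protein-coding genes, and the median difference was 20 bp against 43 bp. The exceptions over 100 bp were EIF3A, EIF3B, EIF4E2 and EIF4ENIF1.

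**Figure D4:**
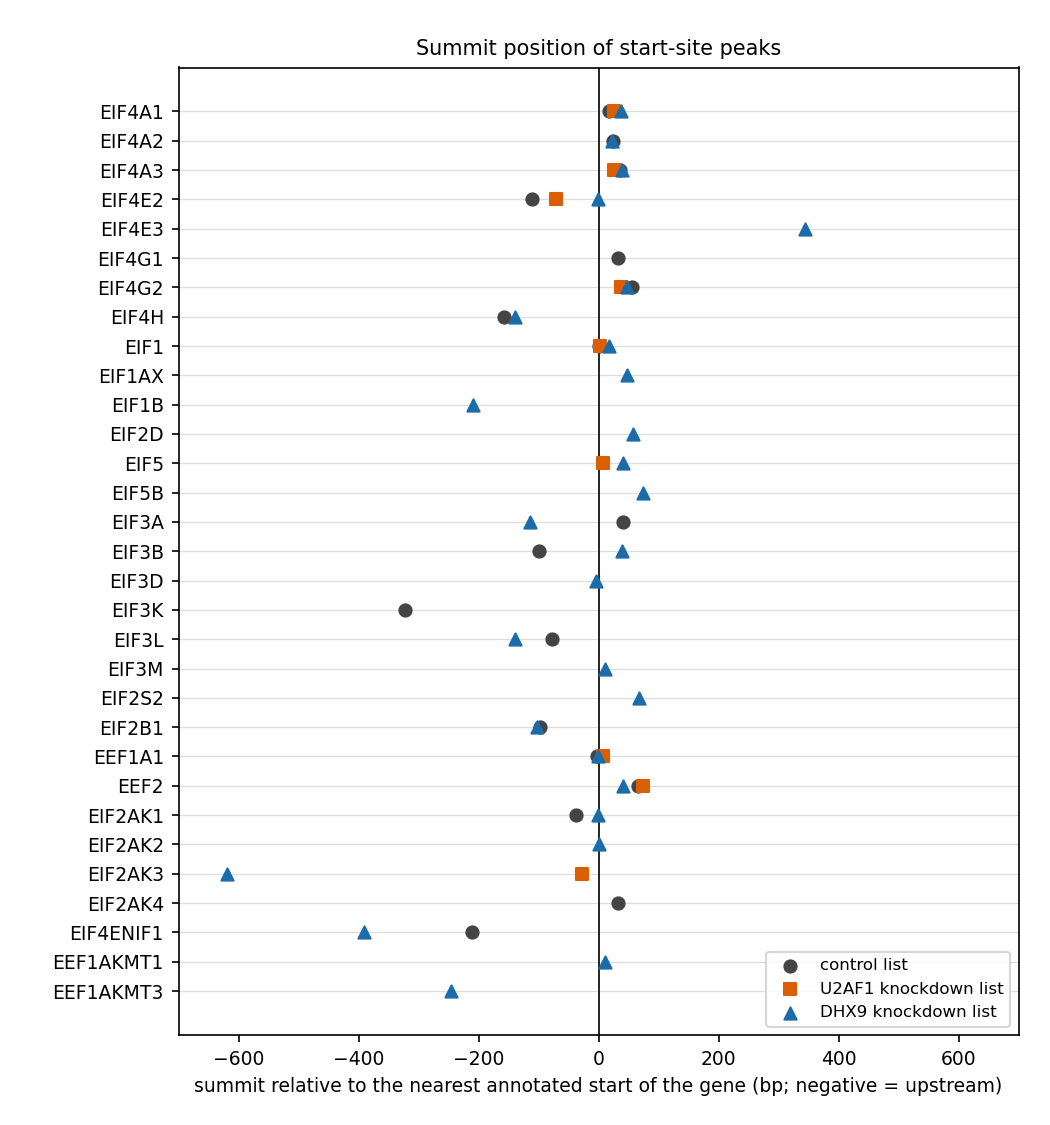
Position of the summit relative to the nearest annotated start of the gene (x axis, bp, negative is upstream) for the 31 genes with a start-site peak (y axis, ordered by role) in the control, shU2AF1 and shDHX9 lists. EIF4A1, EIF4A2, EIF4A3, EIF4G2, EEF1A1 and EEF2 had summits between -2 and 74 bp in every list in which they had a peak; the farthest was that of EIF2AK3, at -620 bp.

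Polymerase peaks near a gene can belong to a neighbour. Of the 31 genes with a peak, 9 had the start of another protein-coding gene within 1000 bp of the summit, and at 7 it was nearer in at least 1 list: EEF1AKMT3, EIF2B1, EIF3K, EIF3L, EIF4E2, EIF4E3 and EIF4ENIF1. Without peaks nearer to another protein-coding gene the shares were 20%, 11.4% and 34.3% in the control, shU2AF1 and shDHX9 lists. Those of all protein-coding genes were 10.6%, 5.64% and 17.9%, and in all 3 lists the shares were 8.57% against 3.17%. Starts of noncoding genes were left out of these counts. Some lay within 1000 bp of a summit, such as EIF2AK3-DT at EIF2AK3 and EIF1B-AS1 at EIF1B, and such peaks may belong to them. No peak away from a start was found inside a translation factor gene, apart from that at BLOC1S5. None of the 153 annotated pseudogenes named after these genes, many of them copies of EEF1A1, overlapped a peak in any list.

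The 100 bases before the RefSeq starts of EEF2, EEF1A1 and EIF4A3 are shown because these genes gave strong peaks in at least 2 lists. Capitals mark exact matches on either strand to the motifs searched. These were the TATA box as TATAAA, the GC box GGGCGG, the CCAAT box and the ETS motif CCGGAAG. The CREB and ATF motif TGACGTCA, the YY1 motif AAGATGGCG and the NRF1 motif were searched too. Other forms of the TATA box, such as the stretch tatataa in EEF1A1, were not searched and are not marked.
EEF2 (chr19:3985464-3985563, minus strand): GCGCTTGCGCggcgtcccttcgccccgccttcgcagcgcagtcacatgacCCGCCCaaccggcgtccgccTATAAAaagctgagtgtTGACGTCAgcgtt
EEF1A1 (chr6:73521033-73521132, minus strand): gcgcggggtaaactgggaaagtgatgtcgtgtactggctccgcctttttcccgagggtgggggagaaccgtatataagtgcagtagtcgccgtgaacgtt
EIF4A3 (chr17:80147129-80147228, minus strand): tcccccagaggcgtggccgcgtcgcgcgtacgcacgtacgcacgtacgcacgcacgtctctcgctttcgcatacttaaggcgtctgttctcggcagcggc

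In EEF2, matches to the NRF1 motif, the GC box, the TATA box and the palindrome TGACGTCA lay within these 100 bases. In the 300 bases from 250 before to 50 after the start, TGACGTCA was found in 1 of the 56 translation factor promoters, that of EEF2, and in 2.64% of 15315 protein-coding promoters. The exact string TATAAA was found in 3 of 56 (5.36%, against 9.64%) and the GC box in 42 of 56 (75%, against 59.2%). The ETS motif was in 14 (25%, against 14.4%), and the NRF1 motif in 9 (16.1%, against 8.61%). The CCAAT box was in 23 (41.1%, against 36.6%) and the YY1 motif in 3 (5.36%, against 2.80%). Genes with a start-site peak had a median of 29 CpG dinucleotides in this window and a GC content of 66.3%, those without one 22 and 62.0%, and all protein-coding genes 22 and 63.0%. These are matches of letters and were not tested.

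Other genes of translation were counted from lists that hold none of the 70. Of 20 termination, recycling and other translation factors, 5 had a start-site peak in the control list, 3 in the shU2AF1 list and 9 in the shDHX9 list. Of 20 cytosolic aminoacyl-tRNA synthetase genes the numbers were 4, 1 and 9, and of 10 mitochondrial translation factors 2, 1 and 4. The shares of these lists were 20 to 25%, 5 to 15% and 40 to 45%, beside 25.7%, 12.9% and 40% of the initiation and elongation factor genes and 12.6%, 6.67% and 21% of all protein-coding genes. The 5% was that of the synthetase genes in the shU2AF1 list. DENR, which recycles ribosomes, had the pattern of EEF2, with rank 2447 in the control, 152 in the shU2AF1 and 480 in the shDHX9 list. PABPC1, the poly(A)-binding protein, had that of EEF1A1, with ranks 140, 1200 and 214. DDX3X, a helicase of initiation, ranked 284, 299 and 115. These 3 were named after their values were seen.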

How the data were processed

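POLR2A ChIP-seq of 9 samples (2 ChIP replicates and 1 input in each of 3 groups) was used as 3 deposited peak lists. Cells were fixed with formaldehyde and chromatin was sonicated, per the labels. The submitters' processing notes name Bowtie2 2.4.5, deepTools 3.5.1, MACS2 2.2.7.1 and hg38. Filters, the use of the input and the pooling of replicates are not given in the sources used here, and peak names in the control list end as if taken from replicate 1 alone. The authors deposited a fold enrichment, which is a ratio, and the −log10 of p and of q for each peak. Library depth is not in the files.

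Peaks were assigned to genes of GENCODE 44 with Python 3.11.15. Where a gene had several start-site peaks, the highest fold counted. Rank percentile is rank divided by list length. Reads at summits were recovered from fold and p, on the assumption that fold is (reads + 1)/(background + 1) and p a Poisson upper tail. Whole reads came out for 100% of 1726 shU2AF1 and 4428 shDHX9 peaks with −log10 p below 250, within a relative tolerance of 0.0001 on −log10 p. In the control list 98.2% of 2728 came out as whole multiples of 0.779, within 0.004, and were divided by that factor. This step was chosen after the data were seen and was tested on simulated peaks. The weakest start-site peak of any protein-coding gene rested on 19, 10 and 9 reads in the control, shU2AF1 and shDHX9 lists, so a gene without a peak may still carry polymerase.

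Ranks with fold enrichment or reads were given for the 12 genes of lowest mean rank percentile among those in all lists (there were 7), and for genes in 1 or 2 lists that ranked in the upper 50% of at least 1 of them. The genes and lists were chosen with earlier results of these data known. No test between conditions was made, because each has 1 list. Intervals are exact binomial or Poisson at 95% and cover counting error only. RefSeq promoters (GRCh38.p14) were matched by symbol for 56 of 70 genes. Alternatives were start windows of 500 and 2000 bp, −log10 q of at least 5, the 1730 most significant peaks of each list and canonical starts. Others were overlap of any base, ranking by −log10 p, core factors only, and, added later, leaving out peaks nearer to another protein-coding gene.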

Additional observations from a re-analysis of the deposited data

How the results depend on the processing

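No paired analysis was possible because every group has 1 deposited list and no values for single replicates were used, and leaving out a replicate was not possible for the same reason. Of 77 alternative values, 72 stayed within the interval of the main value and 5 moved. Many alternatives counted the same peaks and gave the same value, and the intervals are wide, so this count says little about how firm the values are. With 1730 peaks a list, those of lowest p, the share of genes with a start-site peak was 15.7% in the control list (all protein-coding genes 8.08%) and 21.4% in the shDHX9 list (all genes 8.47%), beside 12.9% in the shU2AF1 list (all genes 6.67%). By construction this removes weak peaks from the longer lists. From canonical starts the median summit offsets were 37 bp, 52 bp and 43 bp in the control, shU2AF1 and shDHX9 lists, since fewer starts are then near each summit. The 18 to 28 peaks of the control and shDHX9 lists, and the 9 of the shU2AF1 list, limit the precision of every median.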
